A study of Mus musculus with 2 samples.

Results

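The genes described here encode proteins of the cytosolic ribosome, in embryonic mouse cortex of a control and a Trrap-deleted sample. Trrap is a scaffold of histone acetyltransferase complexes. Members were the rows of the deposited expression table that carried a single symbol of the Rpl, Rps, Rplp or Rpsa series and a value above 0 in both libraries, without the ribosomal protein S6 kinases and without symbols that name a pseudogene. The rule found 35 genes among the 2381 rows of the table. Of these, 16 encode proteins of the large subunit and 19 encode proteins of the small subunit. All but 1 are core ribosomal protein genes. The exception is Rpl22l1, a paralogue of Rpl22. Of 79 core genes (47 large, 32 small), 34 had a row of their own, or 31.9% of the large and 59.4% of the small subunit genes. Rpl13a shared a row with Flt3l and was not counted, and Fau had no row.

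RNA from cortex of B6/129 embryos at E14.5 was sequenced in 2 samples. The Trrap-deleted sample was TrrapF/F with NestinCre, a Cre that acts in neural progenitors and their descendants. The control, entered as wild type, was TrrapF/+ with NestinCre, so both carried the Cre and at least 1 floxed allele. By this genotype the control can lose 1 Trrap allele in the same cells, so it is not a full wild type. Microglia, vessels and meninges do not derive from these progenitors, and the labels do not give the number or sex of the embryos. Each genotype had 1 library, so no value has a standard deviation and no test between genotypes was possible. Values were read here as FPKM, fragments scaled to transcript length and library size, from the layout of the table, which does not name the unit, and the depth is unknown. The table holds only loci that the authors called significantly different. A gene without a row is therefore called not listed, never unchanged. Because the same comparison chose the rows, the levels below are a description. In such bulk samples, fewer cells of a type and less RNA per cell cannot be told apart.

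The ribosome is built from a small subunit that decodes the messenger RNA and a large subunit that joins the amino acids. Each subunit takes up 1 copy of nearly every ribosomal protein, so the genes are expressed together and at high levels in growing cells such as cortical progenitors. Their messenger RNAs typically begin with a tract of pyrimidines that places their translation under mTOR control, several of their introns carry small nucleolar RNAs, and the genome holds many processed pseudogene copies of them.

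The start-site tract could be read for members with an entry among the RefSeq promoters (GRCm38.p6, a build other than the mm9 of the expression table). The windows of 30 bases below, shown for the large subunit genes with the largest decrease, the smallest decrease and the increase and for the small subunit gene with the smallest decrease, run 5′ to 3′ along the gene, with capitals for the longest run of C and T that begins with C within 50 bases of the annotated start.
Rpl10: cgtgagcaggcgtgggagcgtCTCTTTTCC
Rpl4: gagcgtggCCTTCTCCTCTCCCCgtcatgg
Rpl35: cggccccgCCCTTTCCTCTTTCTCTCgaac
Rps7: tgtccccaCCTCTTTTCTTCCgccacccgg
They lie at chrX:74270836-74270865 (plus strand), chr9:64173405-64173434 (plus strand), chr2:39005117-39005146 (minus strand) and chr12:28635910-28635939 (minus strand). The tract began 41 bases after the annotated start in Rpl10, 26 after it in Rpl4, 7 before it in Rpl35 and 22 after it in Rps7. All 4 genes thus held a run of this kind. By the narrower form given below, which needs a C within 5 bases of the start, Rpl35 matched inside its longer run. The 3 lower genes shown had no such match, but most other members with the narrower form were lower too. A promoter entry existed for 27 of the 35 members. A run of at least 8 C or T, beginning with C, within 50 bases of the start was present in 19 of these 27 (70.4%), in 29 of 32 core genes that were not listed (90.6%), in 26.6% of 1441 other listed genes and in 28.7% of all 27025 promoters. The narrower form, a C within 5 bases of the start followed by at least 4 C or T, was present in 10 of the 27 members. It was present in 18 of 32 core genes that were not listed (56.25%) and in 17.2% of all promoters. Of the 10 members with it 9 were lower, and of the 17 without it 17 were lower. Among other listed genes, 150 of 384 with the longer run were lower (39.1%), beside 377 of 1057 without it (35.7%). A match to these letters is a description and not a site.

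Other letters were searched on both strands of the window from 250 bases before to 50 bases after the start. CCGGAAG, the core bound by ETS factors such as GABPA, stood in 10 of 27 members (37.0%) and in 9.12% of all promoters. TATAA stood in 10 of 27 members (37.0%) and in 25.5% of all promoters. CACGTG, the E-box read by Myc, stood in 1 member, Rpl23, and in 7.24% of all promoters. CAAGATGGC, a YY1 core, stood in 0 of 27 members and in 1.32% of all promoters. Of the 32 core genes that were not listed, 13 held CCGGAAG (40.6%) and 6 held TATAA (18.75%). CACGTG stood in 4 of these 32 and CAAGATGGC in 2.

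Transcripts of 34 of the 35 members were lower in the Trrap-deleted cortex and 1, Rpl35, was higher. Over all 2376 rows with values in both libraries, 42.0% were lower. The median log2 fold change of the members was -0.57 (1.49-fold lower), while that of all rows was 0.54. Abundant rows were mostly lower in this table: of 324 rows with a mean FPKM between that of the lowest member (80.4) and the highest (1775), 78.7% were lower. The 255 rows of that range that were neither members nor copies of ribosomal protein genes had a median of -0.54, with 187 lower (73.3%). The members' median thus lay near that of other rows in the same range of abundance. Within this range the members were the more abundant by median. Their median was 413 FPKM in the control, beside 166 over the 289 other rows, copies included. The members' spread was narrower: 30 of 35 members (85.7%) lay within 0.25 log2 units of the members' median, beside 125 of the 255 rows (49.0%). When both libraries were scaled to the same summed FPKM, which moved every log2 value by 0.35, Rpl4 (0.05) and Rps7 (0.03) also became higher and 32 members stayed lower. Scaling to a median of 0 over all rows moved every value by 0.54 in the other direction and left 34 lower.

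**Figure D1:**
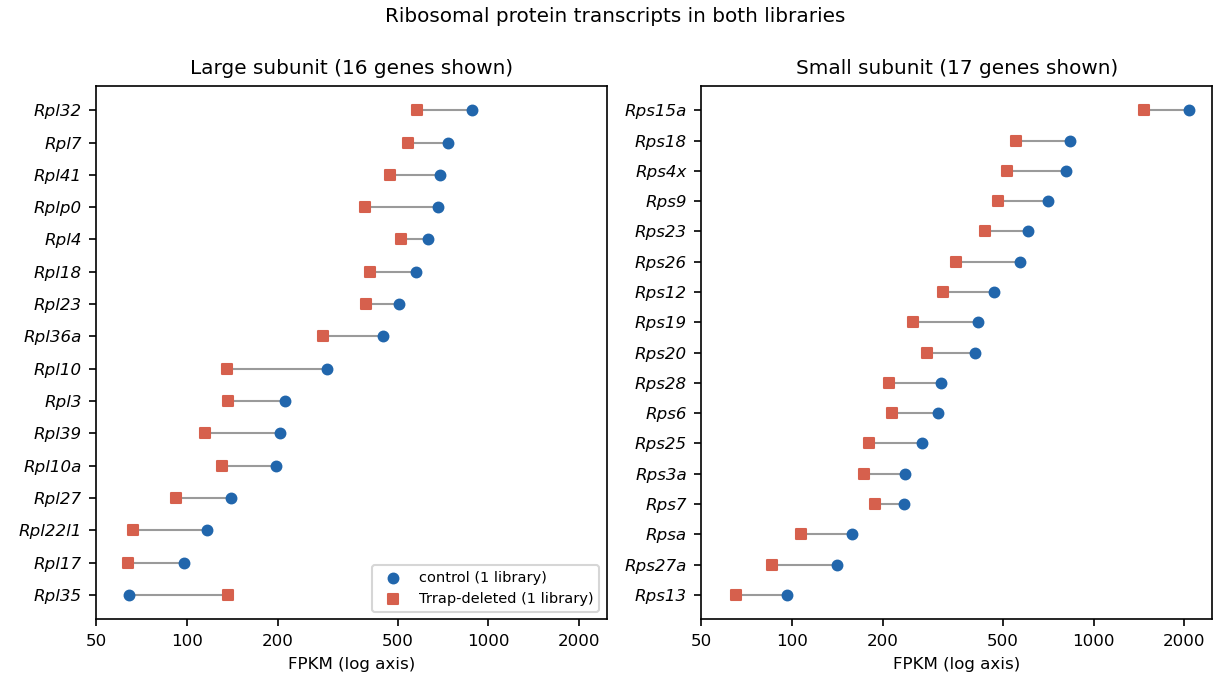
FPKM (log axis) of 16 large and 17 small subunit genes in the control library (circles) and the Trrap-deleted library (squares), 1 library each, sorted by control level. Squares lie left of circles for every gene shown except Rpl35, which went from 64.2 to 137 FPKM.

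**Figure D2:**
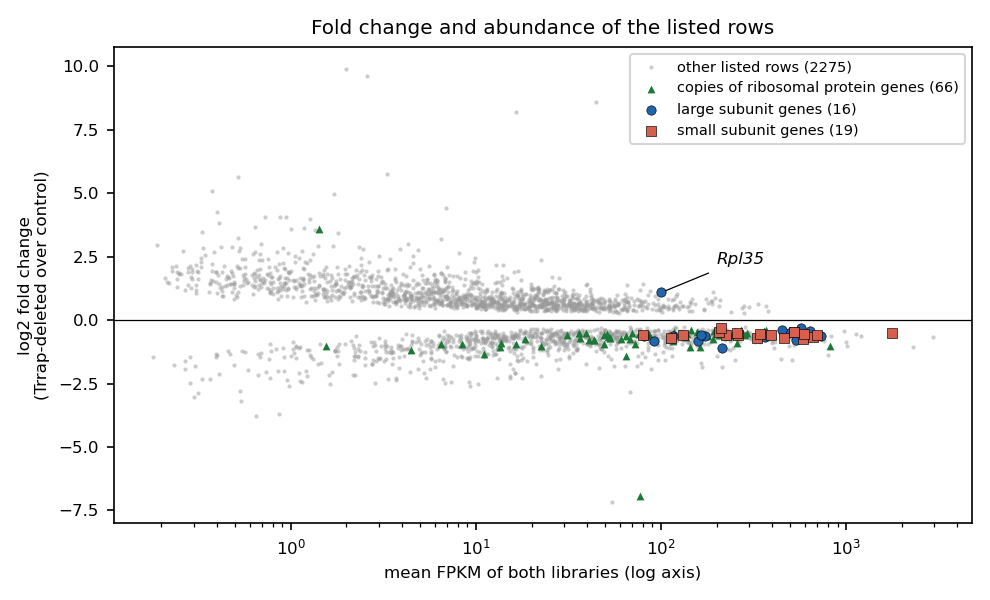
Log2 fold change against mean FPKM (log axis) for all 2376 rows with values in both libraries. Large subunit genes (circles) and small subunit genes (squares) lie in the abundant, mostly lower part of the table, and copies of ribosomal protein genes (triangles) are described further on.

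Summed over the members, FPKM went from 16461 to 11210, a ratio of 0.681. The 35 genes were 1.47% of the rows and held 12.8% of the table's summed FPKM in control cortex and 11.1% after Trrap deletion. Levels in the control spanned 32.3-fold, from Rpl35 at 64.2 to Rps15a at 2077 FPKM, and those in the Trrap-deleted library 23.1-fold. The order of the members was much alike in both libraries, with a Spearman rho of 0.97 over 35 genes that share the libraries and a per-gene length scale. Rpl10 moved from rank 22 to rank 27 and Rplp0 from 9 to 14. Rpl4 moved up from 10 to 6, and Rpl35 from last to rank 25. The fold change had little relation to level within the members (Spearman rho 0.17 with mean FPKM).

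Large and small subunit genes were lower to a similar extent. The median log2 fold change was -0.61 for the 16 large and -0.57 for the 19 small subunit genes, a difference of 0.04. The large subunit genes spread more widely, from -1.10 to 1.10 (SD over genes 0.47, or 0.20 without Rpl35), than the small subunit genes, from -0.76 to -0.32 (SD over genes 0.11). Summed FPKM fell to 0.688 of the control for the large and to 0.676 for the small subunit. The ranges of the subunits overlapped, and no test was made, since genes are not replicates and were chosen by this comparison. At least 1.5-fold lower were 16 of 35 members, beside 31.4% of all rows.

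In the large subunit, genes for proteins of the joining face and the tRNA sites were lower in 6 of 6 cases, with a median of -0.61. Rpl10 encodes a protein that joins the subunit late and lies near the P site (chromosome X, 71516151 to 71518474 on mm9). Its transcript went from 291 FPKM in the control to 135 in the Trrap-deleted library, 2.15-fold lower and the largest decrease among the members. Rpl3, whose protein reaches toward the peptidyl transferase centre, went from 211 to 137 FPKM. Rpl10a encodes the protein of the L1 stalk, which handles the outgoing tRNA, and went from 197 to 131 FPKM. Rpl36a, whose protein lies by the exit site of the tRNA, went from 446 to 283 FPKM. Rpl41 encodes a very short basic peptide between the subunits and went from 693 to 473 FPKM. Rpl23, whose protein sits on the face that meets the small subunit, went from 506 to 392 FPKM. Within this set, Rpl10 thus stood well below the other 5, whose log2 values lay between -0.66 and -0.37. 

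Rplp0 encodes the base of the stalk that recruits translation factors (chromosome 5, 116009476 to 116013751). It went from 680 to 391 FPKM, 1.74-fold lower. In the authors' deposited table it had the lowest q-value of all members, 1.99e-12. Rplp1 and Rplp2, the other stalk genes, were not listed.

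Around the tunnel through which the new chain leaves, 3 of 4 genes were lower. Rpl39 encodes a small protein of the tunnel wall (chromosome X, 34622515 to 34625397) and went from 204 to 115 FPKM, 1.77-fold lower. Rpl17, whose protein lines the tunnel, went from 97.7 to 63.9 FPKM. Rpl4, another protein of the tunnel wall, went from 631 to 514 FPKM, 1.23-fold lower and the smallest decrease among the members. Rpl35, whose protein lies at the rim of the tunnel exit (chromosome 2, 38852233 to 38861688), went from 64.2 to 137 FPKM, a log2 fold change of 1.10. These 4 neighbours in the ribosome therefore held both the smallest decrease and the increase.

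On the outer face of the large subunit, 4 of 4 genes were lower with a median of -0.56. Rpl32, the most abundant large subunit gene of the table, went from 881 to 578 FPKM. Rpl7 went from 734 to 541 FPKM. Rpl18 went from 578 to 406 FPKM. Rpl27 went from 140 to 91.9 FPKM. Their log2 values lay close together, between -0.61 and -0.44, although Rpl27 was far less abundant than the other 3. The paralogue Rpl22l1, whose product can take the place of the Rpl22 protein, went from 117 to 66.2 FPKM, 1.77-fold lower, and Rpl22 itself was not listed.

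All 8 listed genes for proteins of the small subunit's head were lower, with a median of -0.58. Rps19, mutated in Diamond-Blackfan anaemia, went from 413 to 251 FPKM (chromosome 7, 25669390 to 25674825). Rps27a, which is made as a fusion with ubiquitin, went from 141 to 85.6 FPKM. Rps18 went from 838 to 555 FPKM. In these 3 the Trrap-deleted value was at least 1.51-fold below the control. Rps25, needed by some viral internal ribosome entry sites, went from 269 to 180 FPKM. Rps28 went from 311 to 209 FPKM. Rps12, of the beak, went from 468 to 316 FPKM. These 3 were alike, between 1.48-fold and 1.49-fold lower. Rps20 went from 404 to 279 FPKM.

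All 11 listed genes for proteins of the body and platform were lower, with a median of -0.55. Rps26, whose protein lies at the messenger RNA exit channel, went from 569 to 351 FPKM. Rps4x, on the X chromosome, went from 808 to 515 FPKM. Both were at least 1.57-fold lower. Rpsa, also known as the laminin receptor, went from 158 to 107 FPKM. Rps13 went from 95.9 to 64.8 FPKM. Rps9, at the entry of the messenger RNA channel, went from 707 to 482 FPKM. These 3 were between 1.47-fold and 1.48-fold lower despite their different levels. Rps6, the protein phosphorylated by the S6 kinases (chromosome 4, 86500564 to 86503316), went from 304 to 215 FPKM. Rps15a, the most abundant member in both libraries, went from 2077 to 1472 FPKM. Rps23, a protein of the decoding centre, went from 607 to 435 FPKM. These 3 were between 1.40-fold and 1.41-fold lower. Rps3a went from 237 to 172 FPKM. Rps7 (chromosome 12, 29315712 to 29320818) went from 235 to 189 FPKM, 1.24-fold lower. Rps7 also stood closest to the limit of the authors' deposited table, with a q-value of 0.0399 against 0.05. Rpl18 (q = 0.0352) and Rpl23 (q = 0.0345) came next in the authors' deposited table, and loci past its limit were not analysed here.

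The 4 X-linked members were among the lower ones. Rpl10, Rpl39, Rpl36a and Rps4x had a median log2 fold change of -0.74, beside -0.57 for the 31 autosomal members, of which 30 were lower. Other rows on the X chromosome in the members' range of abundance had a median of -0.52 (14 of 18 lower), and over the whole X chromosome 57.1% of 105 rows were lower. Sex-linked transcripts differed between the libraries: Xist went from 313 to 142 FPKM and the Y-linked Eif2s3y from 0.111 to 32.8. Their part in the values of the X-linked members was not tested. Leaving out the 4 genes kept the members' median at -0.57.

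Members that host small nucleolar RNAs did not stand apart. GENCODE M21 places 26 of these RNAs within 13 members, on the same strand, with 5 of them in Rpl4. The 13 hosts had a median of -0.57 and the 22 other members a median of -0.58.

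Reads of ribosomal protein genes can be hard to place, since other genes hold stretches of the same sequence. Of all 50-base words in the coding transcripts of a member (GENCODE M21), a median of 38.8% also occurred in a transcript of another gene. Both strands were searched, and the other genes were not only copies. The gene with the most shared words was Wdr38 for Rpl35, Trappc4 for Rps25 and Snora7a for Rpl32. Wdr38 and Trappc4 overlap these members on the opposite strand. The share of words found elsewhere was 5.43% in Rps15a (327 of 6023) and 7.57% in Rps20 (277 of 3657). It reached 84.6% in Rps6, 85.5% in Rpl36a and 95.1% in Rpl35. A low share did not mean few other genes: words of Rps15a occurred in 64 and those of Rps20 in 50, beside 14 for Rps6. In 14 members the share was at least 50%. The 21 members below that share were all lower, and over all members the share had little relation to the fold change (Spearman rho -0.14, 35 genes). Words of all coding transcripts of a gene were pooled, so many or long transcripts can lower its share. Neither value therefore separates members by how well their reads can be placed, and the part of shared reads was not tested.

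Listed copies of ribosomal protein genes were lower in all but 1 case. Among 219 listed rows that are annotated as pseudogenes or carry a Gm or -ps symbol, 66 matched a ribosomal protein transcript over at least 80% of their length at 80% identity or more (median identity 99.2%). Of these 66 copies, 65 were lower, and their median was -0.64 on the log2 scale. They came from 34 parent genes, and copies of 1 parent can share reads, so they are not separate cases. The listed annotated pseudogenes that did not meet these limits numbered 106, of which 86 were lower (81.1%) with a median of -0.79. Shorter, weaker or reverse-strand matches to ribosomal protein transcripts were not removed from these 106. In 19 of the 66 copies the locus in the table was over 1.5 times as long as the copy, and their values are uncertain. The 47 other copies were lower in 47 cases. The 33 copies of 19 listed members were all lower, and so were 32 of 33 copies of 15 ribosomal protein genes with no row of their own. Among the latter were 9 copies of Rpl21 (-0.92 to -0.67), 4 of Rpl12 (-0.93 to -0.72) and 4 of Rpl23a (-0.63 to -0.53). The exception was Gm12447, a copy of Rpl29, which went from 0.214 to 2.62 FPKM at a locus much longer than the copy. The largest decrease, in Gm15710, a copy of Rpl13 (154 to 1.27 FPKM), also came from such a locus.

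Most copies had a fold change close to that of their own parent gene, and those of Rpl35 did not. Of 33 copies with a listed parent, 25 lay within 0.1 log2 units of the parent's value. Across the 30 copies of the 18 parents other than Rpl35, Pearson's r between copy and parent was 0.79 and Spearman's rho 0.77, and r was 0.73 in 26 copies when those of Rpl10 were also left out. With all 33 copies r was 0.01. These points share libraries, several share a parent, and a copy and its parent can share reads, so the values describe the table. The part of shared reads in this likeness was not tested. The 4 copies of Rpl10 illustrate the likeness. Rpl10-ps1 went from 195 to 92.6 FPKM, Rpl10-ps2 from 18.2 to 8.69, Rpl10-ps3 from 219 to 106 and Gm5621 from 30.4 to 14.8. The locus of Rpl10-ps1 in the table is far longer than the copy, which makes its value uncertain, and the other 3 loci are not. The log2 values of the 4 lay between -1.07 and -1.04, beside -1.10 for Rpl10 and a median of -0.57 over all members.

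The sequences show how little separates these rows. Bases 61 to 120 of the coding sequence of Rpl10 and Rps19 (GENCODE M21) are given with the same stretch of their copies, with capitals for bases that differ from the parent.
Rpl10: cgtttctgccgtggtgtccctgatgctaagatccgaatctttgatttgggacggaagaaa
Rpl10-ps1: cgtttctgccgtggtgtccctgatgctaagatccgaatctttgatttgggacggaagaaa
Rpl10-ps2: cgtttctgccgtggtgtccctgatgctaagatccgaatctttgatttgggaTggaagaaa
Rpl10-ps3: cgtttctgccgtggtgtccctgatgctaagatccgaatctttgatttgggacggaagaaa
Rps19: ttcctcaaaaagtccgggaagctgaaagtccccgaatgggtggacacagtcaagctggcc
Rps19-ps1: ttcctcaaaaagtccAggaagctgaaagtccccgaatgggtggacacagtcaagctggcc
Rps19-ps2: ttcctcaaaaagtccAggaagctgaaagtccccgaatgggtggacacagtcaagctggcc
Over 642 aligned coding bases, Rpl10-ps1 (chromosome 2) and Rpl10-ps3 (chromosome 9, 50152345 to 50153072) differed from Rpl10 at 0 positions and Rpl10-ps2 (chromosome 8, 109451669 to 109452313) at 21. Rps19-ps1 and Rps19-ps2, both on chromosome 14, differed from Rps19 at 11 of 422 aligned bases each. The Rps19 copies had the same values in the table to the last digit, 54.7 FPKM in control and 31.9 FPKM with Trrap deleted. On the log2 scale this was -0.78, beside -0.72 for Rps19.

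Rpl35 and its copies moved in opposite directions. While Rpl35 was 2.14-fold higher, all 3 listed copies were lower: Gm2000 went from 337 to 181 FPKM, Gm10269 from 94.7 to 49.7 and Gm12460 from 21.6 to 11.4. Their log2 values, -0.89, -0.93 and -0.92, lay about 2 units below that of Rpl35. Gm10269 is 98.9% identical to Rpl35 over the matched stretch and Gm2000 is 99.6% identical. FPKM summed over Rpl35 and its 3 copies went from 518 to 380. Gm2000 was the largest part of this sum in both libraries. Its locus in the table is 78.8 times as long as the copy, which makes its value and the sum uncertain. The loci of Gm10269 and Gm12460 are at most 1.20 times as long as the copy. The locus of Rpl35 in the table is 2.34 times as long as the annotated gene. In GENCODE M21 the gene overlaps Wdr38 and Arpc5l on the opposite strand, neither of which was listed, and transcripts of Wdr38 hold 59.0% of its 50-base words on 1 or the other strand. No label or header states if the counting used strand. The value of Rpl35 is therefore uncertain, and the share of misplaced reads in it was not tested. A locus over 1.5 times as long as the gene also occurred in 8 other members, Rps27a, Rpl32, Rps18, Rpl18, Rps20, Rps25, Rps28 and Rps9, all lower. Without these 9 loci all 26 remaining members were lower.

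**Figure D3:**
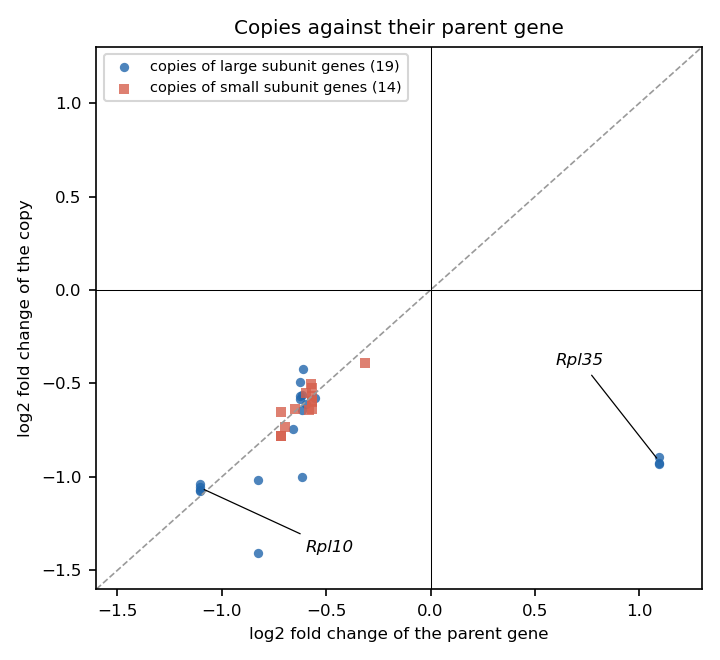
Log2 fold change of 33 listed copies (19 of large and 14 of small subunit genes) against that of their listed parent gene, with the line of equal change dashed. Most copies lie near the line, those of Rpl10 at its lower end, and the 3 copies of Rpl35 lie far below it.

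Genes for other parts of the translation machinery were also in the table. Of 57 translation factor and related genes, 8 were listed, 7 lower and 1 higher (median -0.38), beside 42.0% lower over all rows. Over rows in the members' range of abundance 78.7% were lower, or 73.3% without the members and the copies. Naca, a chaperone subunit that binds new chains at the tunnel exit, went from 250 to 156 FPKM. Eef1b2, the exchange factor of elongation factor 1A, went from 562 to 387 FPKM. Eif5, which acts in start codon recognition, went from 119 to 87.9 FPKM, and Eif2s3x, a subunit of the initiator tRNA carrier, from 96.2 to 72.0. The gene that was higher, named after its value was seen, was Eif1b (99.5 to 133 FPKM). The lower genes of this list include Nap1l1, a nucleosome assembly protein and not a translation factor, also named afterwards (252 to 198 FPKM). Under equal summed FPKM 2 of the 8 were higher, and under a median of 0 none was.

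Of 98 ribosome biogenesis genes, 9 were listed, 8 lower and 1 higher (median -0.65), beside 42.0% lower over all rows. Nhp2 and Dkc1 belong to the particles that place pseudouridine in ribosomal RNA. Nhp2 went from 30.7 to 15.4 FPKM, 1.99-fold lower, and Dkc1 from 63.5 to 34.3. Nop58, of the particles that methylate ribosomal RNA, went from 38.6 to 21.3 FPKM. Ddx21, a nucleolar helicase, went from 37.2 to 22.4 FPKM. The higher gene, named afterwards, was Rrp1 (121 to 186 FPKM). Mitochondrial ribosomal proteins belong to a separate ribosome. Of 78 genes for them 3 were listed, all higher, beside 58.0% of all rows. Their mean FPKM lay between 3.42 and 29.7, below the range of the members. The share higher among rows of that abundance was not counted, so the 3 genes are not set against the members. Mrps11 went from 21.8 to 37.6 FPKM, Mrpl10 from 18.2 to 29.7 and Mrps28, a low transcript named after its value was seen, from 2.23 to 4.61.

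Of 33 genes chosen as possible regulators of ribosomal protein genes or their signalling, 5 were listed, 3 lower and 2 higher, beside 42.0% lower over all rows. Whether each of the 5 acts on ribosomal protein genes was not tested. Tsc2, a brake on mTOR, went from 20.7 to 32.0 FPKM. Rps6ka6, a kinase of the RSK family, went from 20.4 to 12.8 FPKM, and Mxi1, an antagonist of Myc, from 11.3 to 7.61. Trp53, which responds to free ribosomal proteins, went from 47.8 to 19.6 FPKM. Rps6ka5 (8.83 to 13.0 FPKM), named after its value was seen, was higher.

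**Figure D4:**
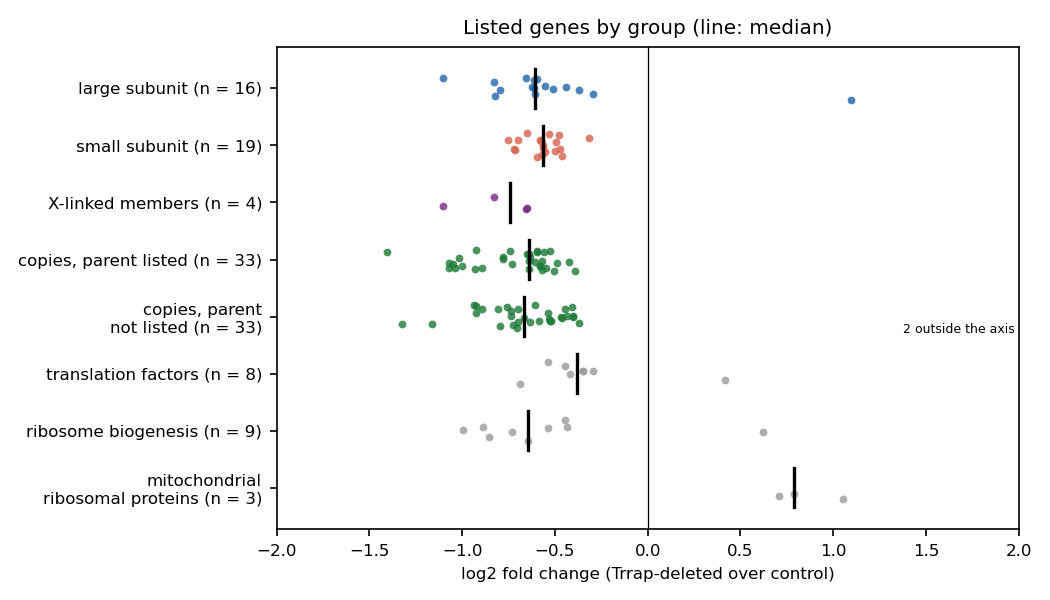
Log2 fold change of each listed gene in 8 groups, with the median as a line; the X-linked members are also shown within their subunits. Subunit genes and their copies lie mostly between -1.1 and -0.3, 2 copies with no listed parent lie outside the axis, and the 3 mitochondrial ribosomal protein genes are higher.

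Facts of the whole series bear on these values. Trrap had no row, and the genotypes could not be checked by its level. Of 18 cortical markers 3 were listed, with Neurod6 going from 312 to 260 FPKM, Fezf2 from 55.9 to 42.5 and Bcl11b from 37.3 to 28.0. Markers of other cells differed too. Of 12 microglial markers 10 were listed, all higher, with a summed level that went from 12.6 to 32.4 FPKM. Of 12 meningeal markers 6 were listed, all higher, summing to 2.96 and 16.4 FPKM. Over all rows 58.0% were higher. The microglial and meningeal markers reached at most 6.34 FPKM, and the share higher among rows that low was not counted. Of 10 erythroid markers Tfrc was lower (24.3 to 9.24 FPKM) and Hbb-y higher (96.8 to 157 FPKM). Markers were counted only among rows with values above 0 in both libraries. The part of these markers in the ribosomal protein values was not tested.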

How the data were processed

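RNA of 1 control and 1 Trrap-deleted cortex sample was sequenced from TruSeq libraries made of total RNA, per the labels' protocols. Reads were aligned with TopHat2 to mm9, per the submitters' processing notes; no source used here gives versions or the counting and test software. The deposited table has the layout that Cuffdiff writes, and the deposited value columns were read as FPKM here from that layout, since no source used here names their unit. The p-value, the q-value and the test score are the authors' deposited values; the score was not used. The table holds rows that passed a q-value of 0.05, and depth is unknown. With 1 library per genotype no test was run. Log2 fold changes (Trrap-deleted over control, no pseudocount) were computed from FPKM in 2376 rows; 5 rows with a value of 0 were left out. Each symbol had 1 row by highest mean FPKM; no member had a second. Starts are 1-based. Annotation and transcripts came from GENCODE M21 and promoters from RefSeq, both on GRCm38 and matched by symbol; Rps3a was matched by its synonym. Copies were found with blastn 2.17.0, and tables were made with Python 3.11.15 and pandas 2.3.3. The narrow start tract and the other motifs were planned; the longer tract was added after the data were seen. Counts and medians were tested on simulated data. Members, lists and structural groups were chosen with earlier results of these data known. Named were the members, without a few that are not reported here, and, from each other list, up to 4 genes with the largest fold change and at least 5 FPKM in the higher library.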

Additional observations from a re-analysis of the deposited data

How the results depend on the processing

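No paired analysis was possible because each genotype had 1 library. The number of lower members stayed within 1.5 times of 34 under every alternative except the omission of members that share at least 50% of their 50-base words, which left 21 lower and 0 higher of fewer genes. The count of higher members was 1 as deposited, 3 under equal summed FPKM, and 0 without Rpl35 or without overlong loci. Under a median of 0 the median log2 fold change was -1.12 for all members, -1.15 for the large and -1.11 for the small subunit; under equal summed FPKM these were -0.23, -0.26 and -0.22. At a q-value under 0.01, lower biogenesis genes numbered 3, higher translation factor genes 0 and higher mitochondrial ribosomal protein genes 1. Higher translation factor genes numbered 0 under a median of 0 and 2 under equal summed FPKM. At the same q-value 30 copies were lower, and the median of the copies was -1.18 under a median of 0 and -0.29 under equal summed FPKM. These shifts follow from the scaling or from fewer rows. Of 104 recomputed values, 85 stayed within 0.1 log2 units or 1.5 times, and none of the medians changed sign. The omission of X-linked members, of word-sharing members and of Rpl35 and the addition of the shared Rpl13a row were chosen after the data were seen. Depth is unknown, so no counting error could be set.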

Other observations

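The row shared by Rpl13a and Flt3l went from 1281 to 709 FPKM, a log2 fold change of -0.85. Rpl13a encodes a large subunit protein and Flt3l a cytokine, and the table does not split them. A listed copy of Rpl13a, Gm11478, went from 64.6 to 33.8 FPKM at a locus much longer than the copy. The row would be among the largest decreases of the large subunit if it were counted there.

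Of the listed copies of Rpl39, 1 was above its parent in both libraries and the other below it. Gm15148, an X-linked copy with 97.4% identity, went from 1096 to 541 FPKM, beside 204 and 115 FPKM for Rpl39. Gm11694, with 93.1% identity, went from 94.3 to 35.6 FPKM. Both were lower by more than Rpl39, by 0.19 and 0.58 log2 units.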
